A study of Anolis carolinensis with 15 samples.

Results

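Desmosomes are cell-cell junctions that couple the intermediate filaments of neighbouring epithelial cells. The 9 genes described here encode parts of these junctions and related filament linkers: the plakins *dsp*, *evpl*, *ppl* and *eppk1*, the armadillo proteins *pkp1*, *pkp2*, *pkp3* and *jup*, and the tetraspan membrane protein gene *perp*. They were chosen by name, and all 9 were found among the 26523 genes counted in each library of sorted cells from the regenerating tail of the green anole lizard (*Anolis carolinensis*).

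In a desmosome, cadherins of the desmoglein and desmocollin families reach across to the next cell, plakoglobin (encoded by *jup*) and the plakophilins bind the cadherin tails, and desmoplakin ties this plaque to keratin filaments. Envoplakin and periplakin are linked to keratin filaments and to the cornified envelope of stratified epidermis. Such junctions are abundant in epidermis and are not a known feature of connective tissue fibroblasts. These roles were established in mammals.

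RNA was sequenced in 15 libraries, 5 groups of 3, called A, B and C in each group. Untreated lizards gave tail tissue on days 7, 14 and 28 after amputation (D7, D14 and D28). A separate experiment compared vehicle (PBS) with zoledronic acid (ZA), a bisphosphonate that inhibits osteoclasts, both at D21. ZA was injected into the peritoneum in 250 µl, 3 times per week, from the week before amputation until collection. The lizards were 9 to 12 months old, of both sexes in equal numbers, and neither the labels nor the methods name an engineered allele or a strain. At D21, 3 tails were collected per condition, as many as there were libraries. The time course experiment was repeated for each library, and how many tails went into a time course library is not given in the sources used here. The p-values measure the spread between these libraries.

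Cells were fixed, hybridised with probes against *col3a1*, a fibrillar collagen gene, and sorted by fluorescence. In both experiments *krt5*, an epidermal keratin gene, was probed as well. The D21 cells were gated as *col3a1*-positive and *krt5*-negative, a gate that removes cells labelled for *krt5*. For the time course the study's text gives conflicting entries for whether the cells were positive or negative for *krt5*. A figure legend of the study also names double-positive cells as collected, and whether these entered the time course libraries is not clear. *krt5* was not analysed here. All 7 fibroblast markers checked (*col3a1*, *col1a1*, *col1a2*, *pdgfra*, *pdgfrb*, *lum* and *dcn*) were detected in every group. Of 8 epidermis markers listed, *tp63*, *epcam*, *esrp1*, *sfn* and *grhl2* were present and above 0 in every group, whereas *krt5*, *krt14* and *cdh1* were not analysed here. The libraries of sorted cells therefore carried counts of both marker lists, and which cells these counts came from was not tested.

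Totals counted on genes ranged from 4237978 to 12699682 per library. The D14 libraries had 11043456 to 12699682 counts and 24881 to 24900 genes above 0. The D7 libraries had 8166652 to 8859393 counts and 20250 to 22100 genes above 0. This difference goes along with the day, and its part in the results was not tested. D28 A stood apart from its group. Across genes, log2 levels of D28 A correlated with those of D28 B and D28 C at Pearson's r of 0.757 and 0.756, and D28 B with D28 C at 0.932. The study notes that 1 D14 library did not cluster with its timepoint, without saying which. It puts this most likely down to batch effects, since that library was sequenced before the other time course libraries. As the library is not named, values within that batch could not be computed. Here the D14 libraries correlated with each other at 0.965, 0.9775 and 0.9698. The study also reports batch effects among the PBS and ZA libraries, without naming the batches. In the sample records the treatment entry of ZA A reads PBS, and that of PBS A reads N/A and names no treatment. Both differ from the titles, and the titles were followed. Levels are given below as CPM, the counts per 1000000 counts of a library after normalization over all 15 libraries, in the order A, B, C. They are not scaled by gene length and are compared between libraries, not between genes. In such bulk samples, fewer cells of a type and less RNA per cell cannot be told apart.

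For 8 of the 9 members, all but *pkp2*, every library of D14, PBS and ZA and both D28 B and D28 C lay above every D7 library. This held for 5.7% of 22035 genes, and D28 A was left out of the count after its values were seen. *dsp* encodes desmoplakin and lies on chromosome 4, from 120795345 to 120859870 of rAnoCar3.1.pri. Its level was 477, 239 and 357 CPM in D7. The D14 libraries had 2875, 2950 and 1878 CPM. In D28 it was 331 in A, 2929 in B and 2556 in C. D28 A thus lay within the D7 range, whereas the other D28 libraries lay within or near the D14 range. At D21 it was 1199, 2884 and 757.7 in PBS and 1649.9, 3978 and 3414 in ZA. The PBS and ZA libraries overlapped, and every one of them was above every D7 library.

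The same contrast of D7 with later groups was seen in the other plakins. *evpl* (envoplakin, chromosome 2, 135966226 to 136019871) had 140, 81.2 and 49.99 CPM in D7 and 849.8, 721 and 639.7 in D14. Its D28 libraries had 173, 638 and 392, so that D14 and D28 were parted only by the gap between 637.8 and 639.7. At D21 *evpl* was at 322, 655 and 191 in PBS and at 403, 1269 and 782 in ZA, again with overlap.

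*ppl* encodes periplakin, the partner of envoplakin, and is on an unplaced sequence of the assembly. Its D7 libraries were close to each other, at 106, 97.1 and 119 CPM, and its D14 libraries were at 586, 493 and 335. It was at 100.02 in D28 A and at 837 and 507 in D28 B and C. PBS libraries had 416, 564 and 177 CPM and ZA libraries 544, 853 and 581.

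*eppk1* (chromosome 4, 440265 to 459409) encodes epiplakin, a plakin made of repeats that bind keratin filaments. It was at 1294, 641 and 1109.8 CPM in D7 and at 10021, 5652 and 8234 in D14. It was at 930.1 in D28 A and at 7076 and 5066 in D28 B and C. PBS libraries were at 10263, 7100.1 and 4203 CPM and ZA libraries at 13767, 12834 and 5626. Its lowest ZA library was below its highest PBS library, and the ZA and PBS ranges overlapped for each of the other members as well.

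Among the armadillo proteins, *pkp1* (plakophilin 1, chromosome 4, 210919758 to 210975934) showed the widest gap within D28 among the members counted in D28 A. It was at 51.5 CPM in D28 A and at 744 and 665 in D28 B and C. Its D7 libraries were at 97.4, 39.2 and 53.4 and its D14 libraries at 575, 629 and 349. In PBS it was at 271, 580.0 and 242, and in ZA at 268, 691 and 706.

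*pkp3* (plakophilin 3, chromosome 1, 260475929 to 260558354) had 45.5, 32.9 and 17.9 CPM in D7 and 305, 188 and 146 in D14. It was at 40.1 in D28 A and at 355 and 249.8 in D28 B and C. Levels in PBS were 163, 275 and 131, and those in ZA were 263, 458 and 254.

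*jup* encodes plakoglobin, which also sits in adherens junctions, and spans 31124796 to 31202437 of chromosome 6. Levels were 169.8, 105 and 122 CPM in D7 and 503, 531 and 396 in D14. In D28 A it was at 88.3, below every D7 library, and in D28 B and C it was at 702 and 579. PBS libraries had 322, 474 and 204 CPM, and ZA libraries had 309, 843 and 766.

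*pkp2*, the plakophilin known from heart muscle and simple epithelia in mammals (chromosome 5, 184381864 to 184452198), was close to the detection limit. Its raw counts were 8, 35 and 25 in D7, 36, 29 and 20 in D14, and 0, 26 and 20 in D28. They were 20, 0 and 2 in PBS and 3, 18 and 69 in ZA. A count of 0 allows up to 3 counts, or 0.396 CPM in D28 A and 0.344 in PBS B, for counting error only. The groups overlapped in each of the 4 comparisons, and no difference of *pkp2* was detectable at this depth.

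*perp* (chromosome 1, 83792125 to 83809785) encodes a p53-regulated protein needed for desmosome assembly in mouse epidermis. Levels were 9.24, 2.93 and 9.26 CPM in D7 and 36.0, 74.0 and 32.8 in D14. It was at 26.4, 42.3 and 88.7 in D28, where library A was the lowest but above every D7 library. At D21 the PBS libraries had 45.6, 21.6 and 55.6 CPM and the ZA libraries 31.3, 31.3 and 54.6.

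**Figure D1:**
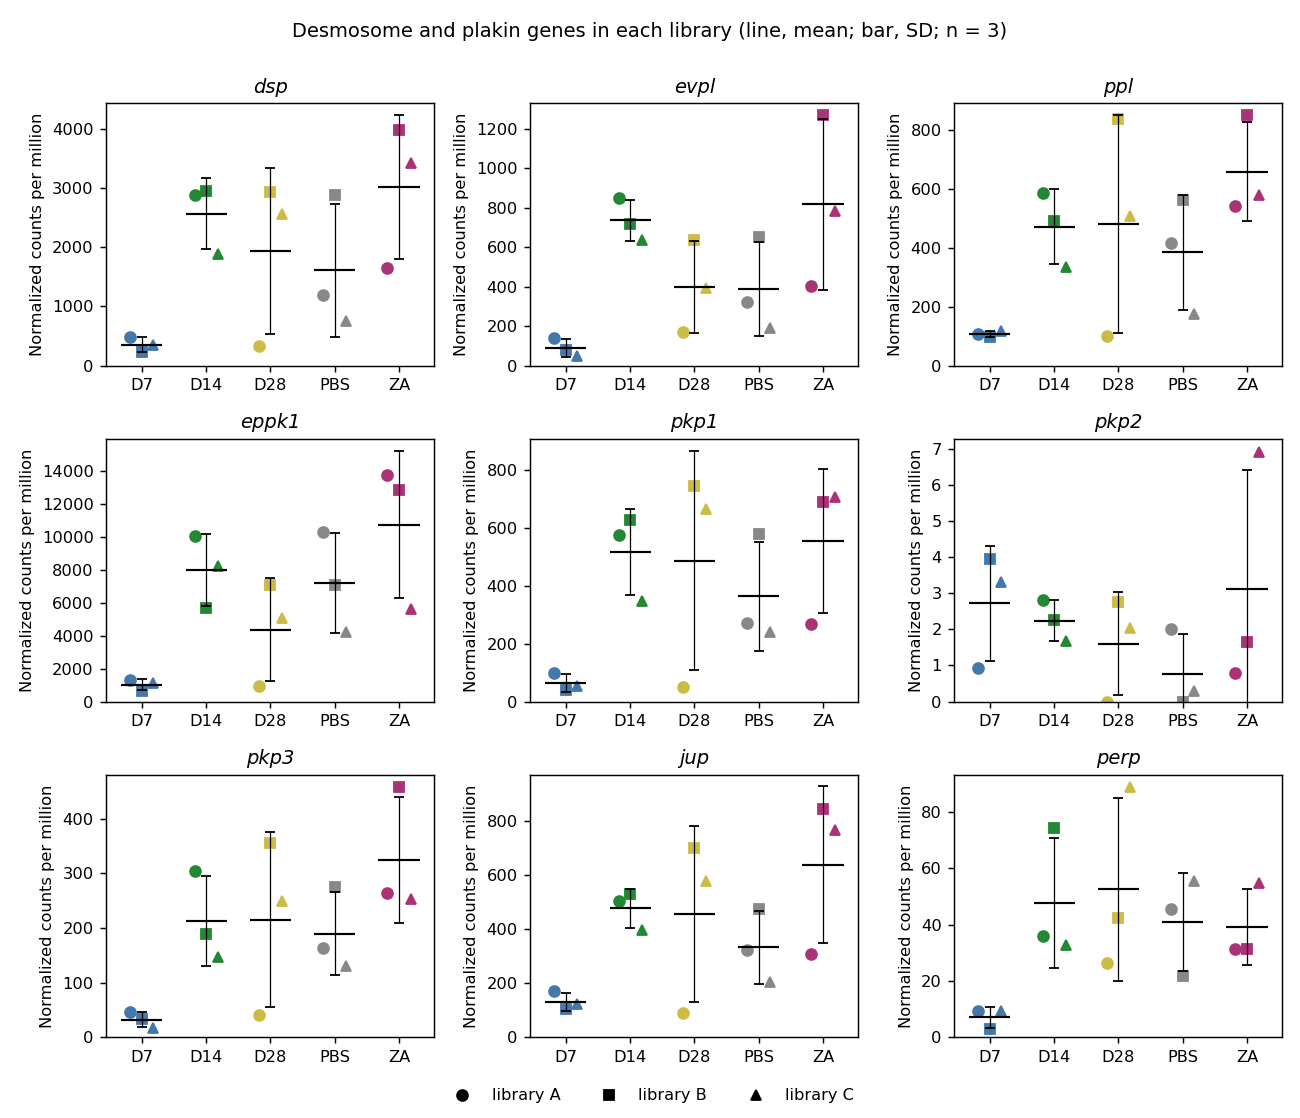
Normalized counts in CPM (vertical axis, linear from 0) of each of the 9 genes in the 15 libraries, by group, with a circle for library A, a square for B and a triangle for C, a line at the mean and a bar of 1 SD (n = 3). The D7 mean is the lowest in all panels but that of *pkp2*. The D28 circle is below the other D28 points, widely for *pkp1* at 51.5 against 744 and 665, and less so for *perp* at 26.4 against 42.3 and 88.7.

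Ordered by group mean, D7 was the lowest group for 8 of the 9 members (33.4% of all genes) and ZA the highest for 8 of 9 (19.8% of all genes). The exceptions were *pkp2*, for which PBS was lowest, and *perp*, for which D28 was highest. Of the 36 pairs of neighbours in these orders, 28 overlapped in their libraries. The 8 pairs that did not overlap (7.68% of such pairs over all genes did not) were D7 and the next group for 7 members, all but *eppk1* and *pkp2*, and D28 and D14 for *evpl*. The mean of *dsp* was 358 ± 119 CPM at D7, 1613 ± 1122 in PBS, 1939 ± 1404 at D28, 2568 ± 598 at D14 and 3014 ± 1214 in ZA (SD, n = 3 each). Without D28 A the D28 mean of *dsp* was 2742 ± 263 (SD, n = 2). The place of ZA as highest depended on D28 A for some members. Without D28 A the D28 mean was above the ZA mean for *ppl* (671.8 against 659.2), *pkp1* (704.6 against 555.0) and *jup* (640.3 against 639.1). The D21 groups come from a separate experiment, and no test was made between it and the time course.

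The step from D7 to D14 asked what changed as the wound stage gave way to the blastema, the mass of cells from which the new tail grows. Of the 9 members, 6 rose at an adjusted p under 0.05 in edgeR's quasi-likelihood test over 21326 genes, and none fell. Over all genes tested, 2.22% rose and 2.4% fell. The rises ranged from 6.21-fold for *pkp3* and *perp* to 7.65-fold for *pkp1*. The log2 fold change was 2.75 for *dsp* (SE 0.65, adjusted p = 0.0348), 2.93 for *evpl* (SE 0.51, adjusted p = 0.0107) and 2.88 for *eppk1* (SE 0.65, adjusted p = 0.0286). It was 2.94 for *pkp1* (SE 0.74, adjusted p = 0.0457), 2.64 for *pkp3* (SE 0.65, adjusted p = 0.0414) and 2.64 for *perp* (SE 0.57, adjusted p = 0.0252).

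The other members did not pass. *ppl* had a log2 fold change of 2.03 (adjusted p = 0.0661), *jup* of 1.76 (adjusted p = 0.0979) and *pkp2* of -0.38 (adjusted p = 0.894). Every D14 library was above every D7 library for 8 of the 9, all but *pkp2*. Libraries did not overlap in this direction for 26.5% of all genes. The median log2 fold change of the members was 2.64, and that of all genes tested was 0.05.

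The number of members that passed changed with the libraries in the fit. D28 A enters this contrast through the shared estimate of the spread, the filter on genes and the normalization. Without D28 A, 8 of 9 passed (8.82% of all genes rose). The log2 fold change was then 2.75 for *dsp* (adjusted p = 0.000301), 2.03 for *ppl* (adjusted p = 0.000721) and 1.76 for *jup* (adjusted p = 0.000774). The number of members passing was 0 without D7 B, D7 C or D14 A, 1 without D7 A or D14 B, 2 without D14 C, 4 without D28 C and 7 without D28 B. In each of these fits 8 members had an unadjusted p under 0.05 (13.5% to 32.1% of all genes did), and the log2 fold change of *dsp* stayed between 2.53 and 2.99. Over all genes, the number passing went from 986 to between 68 and 311 without D7 B, D7 C or any D14 library.

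From D14 to D28 no member passed the test. The log2 fold changes ran from -0.78 for *evpl* (95% confidence interval -1.81 to 0.25) to 0.24 for *perp* (-0.92 to 1.39), with adjusted p from 0.613 to 0.997 in edgeR. With all libraries, no member had an unadjusted p under 0.05 in edgeR or in DESeq2. In DESeq2 without D28 A, 2 members had one, where 21.9% of all genes did. Over all genes tested, 0.675% rose and 0.352% fell. The interval of *dsp*, -1.63 to 1.02, is wide enough to hold a change of 1 log2 unit in either direction. Without D28 A no member passed either (2.62% of all genes rose and 1.47% fell), and 7 members then had a log2 fold change above 0, up to 0.61 for *ppl* (-0.02 to 1.25, adjusted p = 0.272). Every D28 library was below every D14 library for *evpl* alone, against 14.7% of all genes. Without D28 A this still held for *evpl* alone (27.7% of all genes). D28 B and C were then above every D14 library for *pkp1* and *jup* (17.4% of all genes).

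D28 was compared with D7 to span the whole regrowth. The D14 and D28 comparisons with D7 share the D7 libraries, and both share a fit. Of the 9 members, 6 rose at an adjusted p under 0.05, where 4.05% of all genes rose and 4.21% fell, and no member fell. The log2 fold change was 2.95 for *pkp1* (SE 0.75, adjusted p = 0.0336), 2.87 for *perp* (SE 0.58, adjusted p = 0.0149) and 2.75 for *pkp3* (SE 0.65, adjusted p = 0.0269). It was 2.44 for *dsp* (adjusted p = 0.0391), 2.16 for *ppl* (adjusted p = 0.0415) and 2.15 for *evpl* (adjusted p = 0.0229). *eppk1* at 2.10 (adjusted p = 0.0579), *jup* at 1.79 (adjusted p = 0.0722) and *pkp2* at -0.76 (adjusted p = 0.724) did not pass.

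Only *evpl* and *perp* had every D28 library above every D7 library (11.1% of all genes did). D28 A was the library that overlapped D7 for 6 of the others, and *pkp2* overlapped with or without it. Its levels were within the D7 range for *dsp*, *ppl*, *eppk1*, *pkp1* and *pkp3*, and the mean of D28 B and C was above it by 13.7-fold for *pkp1*, 8.28-fold for *dsp*, 2.98-fold for *evpl* and 2.48-fold for *perp*. Without D28 A, 8 of 9 members passed (11.0% of all genes rose) and 8 of 9 did not overlap (23.6% of all genes). *pkp1* then had a log2 fold change of 3.48 (SE 0.37, adjusted p = 0.00016), *dsp* of 2.94 (SE 0.32, adjusted p = 0.000166) and *jup* of 2.28 (SE 0.26, adjusted p = 0.000231). The number passing was 0 without D7 B or D7 C, 1 without D28 B or D28 C, 2 without D7 A, 3 without D14 A and 4 without D14 B or D14 C. Over all genes, the number passing went from 1761 to 322 without D7 B, 291 without D7 C, 1609 without D28 B and 791 without D28 C. It was 1289 without D7 A and between 1015 and 1137 without a D14 library.

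**Figure D2:**
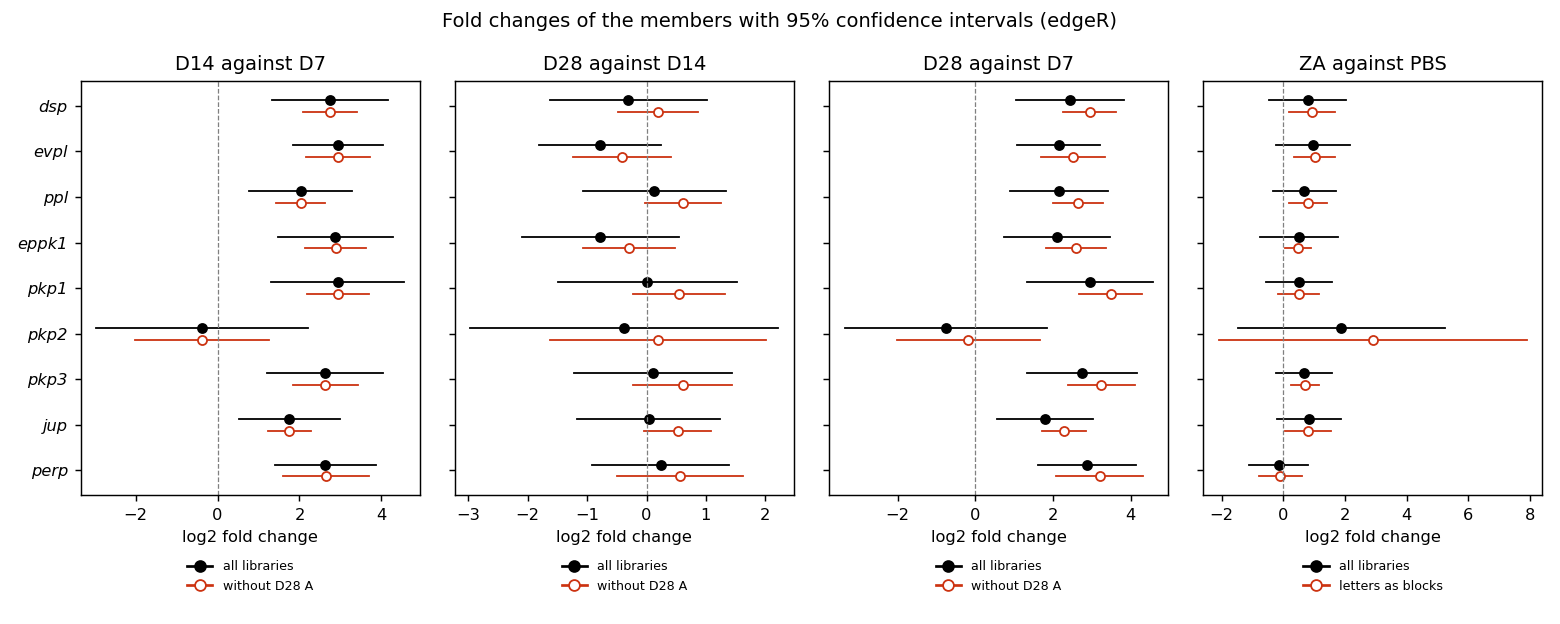
Log2 fold changes (horizontal axis) of the 9 genes in 4 comparisons, with 95% confidence intervals from edgeR; filled black points use all libraries, and open red points leave out D28 A or, for ZA against PBS, take the library letter as a block. Intervals of 8 members lie above 0 in D14 against D7, with *dsp* at 2.75, and those in D28 against D14 include 0.

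The ZA experiment asked what inhibition of osteoclasts did to the sorted cells. No member passed the test of ZA against PBS in edgeR over 18988 genes, of which 0.00527% rose and 0.0369% fell. The ranges overlapped for all 9, whereas ZA was wholly above PBS for 6.25% of all genes and wholly below it for 4.34%. No member had an unadjusted p under 0.05 in edgeR or DESeq2, and each had an adjusted p of 0.999 in edgeR. The log2 fold change was 0.96 for *evpl* (95% confidence interval -0.23 to 2.15), 0.83 for *jup* (-0.20 to 1.86), 0.79 for *dsp* (-0.46 to 2.05), and 0.68 for both *ppl* and *pkp3*. It was 0.51 for *eppk1*, 0.50 for *pkp1*, 1.88 for *pkp2* (-1.48 to 5.23) and -0.15 for *perp*. These intervals hold both no change and a doubling for each of *evpl*, *jup* and *dsp*.

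Libraries of the same letter deviated together weakly in this experiment, with correlations across genes of 0.28 in A, 0.22 in B and 0.18 in C. ZA was above PBS in A, B and C for 5 of the 9 members, *dsp*, *evpl*, *ppl*, *eppk1* and *pkp3*, and for 19.3% of all genes. For *dsp* the log2 ratio of ZA to PBS was 0.46 in A, 0.46 in B and 2.17 in C, and for *pkp3* it was 0.69, 0.74 and 0.95. *pkp1* and *jup* were higher in B and C and near equal in A, at log2 ratios of -0.02 and -0.06. *perp* was higher in B alone. With the letter as a block, 6 members had an unadjusted p under 0.05, where 9.52% of all genes did, and none passed the adjusted threshold, with *pkp3* lowest at an adjusted p of 0.271.

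Levels of most members went up and down together across libraries, to differing degrees. Over the 15 libraries, which share 2 experiments and their group differences, Pearson's r between log2 levels was 0.98 for *dsp* with *pkp1*, 0.98 for *dsp* with *jup* and 0.96 for *dsp* with *ppl*. After group means were removed these were 0.98, 0.98 and 0.92. D28 A enters these values with large deviations, as *dsp* was 8.28-fold and *pkp1* 13.7-fold below the mean of D28 B and C. Values of r without D28 A, and the share of all genes with such r, were not computed. *eppk1* had r of 0.88 to *dsp* and 0.85 to *evpl*, which were 0.70 and 0.53 after group means were removed. It was closer to *pkp3* and *ppl*, with r of 0.91 to each, which were 0.77 and 0.83 after group means were removed. *perp* had r from 0.66 to 0.78 to the members other than *pkp2*, and from -0.05 to 0.44 after group means were removed. *pkp2* had r from -0.04 to 0.30 with the others, at counts too low to read.

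Relative to *dsp* in the same library, *jup* and *ppl* were lower at D14 than at D7. The log2 ratio of the *jup* to the *dsp* count was -1.41 ± 0.20 at D7 and -2.41 ± 0.15 at D14, and its D28 value was -2.04 ± 0.12 (SD, each n = 3). That of *ppl* was -1.68 ± 0.44 at D7 and -2.45 ± 0.15 at D14. The D7 and D14 libraries did not overlap for *jup*, *ppl* and *pkp2*, but such a fall relative to *dsp* was found for 75.0% of all genes, since *dsp* itself rose. The ratios of *evpl*, *eppk1*, *pkp1*, *pkp3* and *perp* overlapped between D7 and D14. The ratio of *jup* in D28 A was close to those in D28 B and C, at -1.91, -2.06 and -2.14. D28 A was higher than B and C for *evpl*, at -0.94 against -2.20 and -2.70, and for *perp*, at -3.65 against -6.11 and -4.85. It was lower for *pkp1*, at -2.69 against -1.98 and -1.94.

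**Figure D3:**
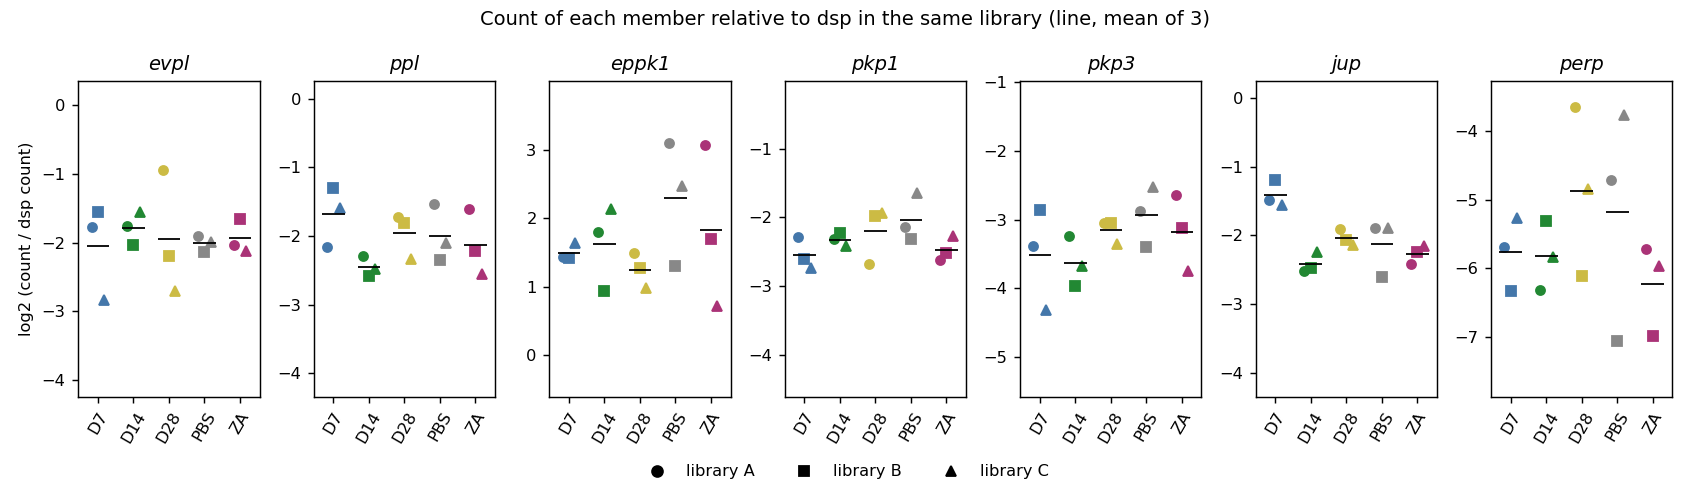
Log2 ratio of each member's count to the *dsp* count of the same library (vertical axis, a span of the same size in every panel) by group, with libraries A, B and C as circle, square and triangle and a line at the mean. *jup* falls from -1.41 at D7 to -2.41 at D14, and *pkp2* is left out for its low counts.

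Of the cadherins that the plaque proteins bind, *dsg2* (desmoglein 2) was the only match among 7 listed symbols, and the others were not analysed here. It was at 23.0, 10.2 and 6.35 CPM in D7 and at 112, 215 and 107 in D14. In D28 it was at 34.6, 45.8 and 35.5, below every D14 library, and here D28 A was not apart. *dsg2* rose from D7 to D14 by 3.36 on the log2 scale (SE 0.48, adjusted p = 0.00703). Its log2 fold change was -1.81 from D14 to D28 (adjusted p = 0.105) and 1.55 from D7 to D28 (adjusted p = 0.055). Without D28 A these were -1.73 (adjusted p = 0.0687) and 1.63 (adjusted p = 0.0275).

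Related gene lists were counted in the same fits. Over all genes tested, 2.22% rose from D7 to D14 and 4.05% from D7 to D28, with median log2 fold changes of 0.05 and 0.13. None of the 3 other plakins present (*plec*, *dst* and *macf1*, which link filaments and microtubules in many cell types) passed from D7 to D14. *plec*, which encodes plectin, had a log2 fold change of -1.17 (adjusted p = 0.0967) and without D28 A fell by that amount at an adjusted p of 0.017. The median of the list from D7 to D14 was -0.21. From D7 to D28 none of the 3 passed with all libraries. Without D28 A, *dst* rose from D7 to D28 by 0.83 on the log2 scale (adjusted p = 0.0344), where 11.0% of all genes rose. *plec* fell by 1.35 in that fit (adjusted p = 0.0146), where 9.18% of all genes fell.

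Of 8 hemidesmosome genes, which anchor basal epidermal cells to the basement membrane, 5 rose from D7 to D14 and none fell, with a median log2 fold change of 1.53. Over all genes, 2.22% rose and the median was 0.05. *itga6* rose by 2.36 (adjusted p = 0.0077), *itgb4* by 2.07 (adjusted p = 0.0219) and *col17a1* by 1.53 (adjusted p = 0.0351) on the log2 scale. From D7 to D28, 3 of the 8 rose, where 4.05% of all genes did. These were *itga6*, by 2.38 (adjusted p = 0.00659), *itgb4*, by 1.53 (adjusted p = 0.0464), and *col17a1*, by 1.52 (adjusted p = 0.0275), on the log2 scale. *itga6* was not low in D28 A, at 64.0 CPM against 72.7 in B and 90.3 in C.

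Of 8 adherens junction genes present, 2 rose from D7 to D14, both nectins: *nectin4* by 3.22 (adjusted p = 0.0183) and *nectin1* by 1.60 (adjusted p = 0.0394) on the log2 scale. *cdh2*, the cadherin of neural and mesenchymal cells, fell by 2.98 from D14 to D28 (adjusted p = 0.00327) and by 2.85 from D7 to D28 (adjusted p = 0.00284). From D7 to D28 *nectin4* rose by 2.57 (adjusted p = 0.0286), with D28 A at 26.1 CPM against 20.1 to 27.6 in D7. *ctnnb1*, which encodes the armadillo relative of plakoglobin, had a log2 fold change of 0.28 from D7 to D14 (adjusted p = 0.73).

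Of 7 intermediate filament genes present, the mesenchymal filament gene *vim* fell from D7 to D14, by 2.15 on the log2 scale (adjusted p = 0.00621), and none rose. From D14 to D28 the muscle filament gene *des* rose by 2.56 (adjusted p = 0.0465), from 3.44, 3.48 and 5.59 CPM to 16.4, 19.2 and 33.8. From D7 to D28 the keratin genes *krt80* and *krt23* rose, by 3.52 (adjusted p = 0.0273) and 3.22 (adjusted p = 0.026), and *vim* fell by 1.93 (adjusted p = 0.00628). Of 6 genes of the cornified envelope and late epidermis tested, the lipid transporter gene *abca12* rose from D7 to D14 by 3.74 (adjusted p = 0.0437) and from D7 to D28 by 4.67 (adjusted p = 0.0173). *scel*, which encodes sciellin, rose in the latter by 2.64 (adjusted p = 0.04). In D28 A *krt80* was at 13.7 CPM, *krt23* at 9.11 and *abca12* at 22.4, below the highest D7 library (22.3, 9.13 and 36.5). *scel* in D28 A, at 15.4, was just above its highest D7 library at 15.1.

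Of 13 epidermal transcription factors, 8 rose from D7 to D14 and 9 from D7 to D28, and none fell in either. The shares of all genes that rose were 2.22% and 4.05%. The largest rises among those that passed from D7 to D14 were those of *foxn1*, by 5.13 (adjusted p = 0.0476), *znf750*, by 3.42 (adjusted p = 0.00513), and *grhl2*, by 3.39 (adjusted p = 0.0339), on the log2 scale. In D28 against D7 they were those of *foxn1*, by 4.53 (adjusted p = 0.05 as rounded), *grhl1*, by 4.27 (adjusted p = 0.0375), and *ehf*, by 3.93 (adjusted p = 0.0421). D28 A was at 0 CPM for *foxn1*, 6.47 for *grhl1* and 4.09 for *ehf*, below the highest D7 library (3.81, 16.6 and 4.17). For the other factors that passed, D28 A was above every D7 library, as for *klf5* at 80.8 against at most 21.4. No gene of these lists passed in ZA against PBS.

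Without D28 A more genes of these lists passed, as more did over all genes. Over all genes, 8.82% then rose from D7 to D14, 11.0% from D7 to D28 and 2.62% from D14 to D28. From D7 to D14, 7 of 8 hemidesmosome genes, 3 of 8 adherens junction genes, 4 of 6 genes of the cornified envelope and 11 of 13 epidermal transcription factors then rose. So did 3 of 7 intermediate filament genes, *krt80* by 2.01 (adjusted p = 0.00543), *krt23* by 2.25 (adjusted p = 0.0133) and *krt222* by 3.27 (adjusted p = 0.0321), while *vim* still fell. The numbers that rose from D7 to D28 were 5, 5, 4, 12 and 4 in the same order. From D14 to D28, 2 intermediate filament genes (*krt80* and *des*) and 2 genes of the cornified envelope (*tgm5* and *abca12*) then rose.

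Epidermis markers rose in the same comparisons as members did. All 5 markers present rose from D7 to D14 and from D7 to D28 in edgeR (2.22% and 4.05% of all genes did). Among them, *tp63* and *grhl2* were also counted with the epidermal transcription factors above. Their summed level was 171 to 295 CPM in D7, 1185 to 1768 in D14, 717 to 1818 in PBS and 1652 to 2456 in ZA. In D28 it was 365 in A, 1315 in B and 895 in C. The members' summed level was 1243 to 2340 CPM in D7, 11240.2 to 15754 in D14, 5962 to 13004 in PBS and 12190.3 to 20958 in ZA. In D28 A, B and C it was 1740.4, 13324 and 10106. D28 A was thus within the D7 range for the members' sum but above every D7 library for the epidermis sum. In ZA A the epidermis sum was the highest of the ZA libraries, at 2456 with *epcam* at 1348, while *dsp* was at its ZA lowest of 1649.9. The correlation of these sums was not computed. *eppk1* was the largest part of the members' sum in every library. It held 0.897% of all counts in PBS A, where the members together held 1.14%, and 0.564% against 1.22% in ZA C.

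The 7 fibroblast markers summed to 18261 to 20590.0 CPM in D7, 7803 to 9030 in D14, 15329 to 43126 in PBS and 8257 to 21279 in ZA. Their sum was 93260 in D28 A, 24365 in D28 B and 26632 in D28 C, so that D28 A had the highest sum of fibroblast markers and the lowest sum of epidermis markers in its group. Collagen genes made up most of that sum, and not every marker followed it. *pdgfra* was lowest of its group in D28 A, at 67.9 CPM against 114 and 168, and *lum* and *dcn* lay between D28 B and C. Of the 7 markers 1, *pdgfrb*, fell from D7 to D14, by 1.79 on the log2 scale (adjusted p = 0.0473), where 2.4% of all genes fell. Without D28 A, 4 fell, where 8.26% of all genes did. These were *col3a1* by 1.77 (adjusted p = 0.000771), *pdgfrb* by 1.79 (adjusted p = 0.00527), *col1a2* by 1.27 (adjusted p = 0.00319) and *col1a1* by 1.09 (adjusted p = 0.00752). From D14 to D28 *col1a1* rose by 2.83 (adjusted p = 0.0445) and *col1a2* by 2.24 (adjusted p = 0.0479), where 0.675% of all genes rose. From D7 to D28 *lum* rose (adjusted p = 0.0339), as did 4.05% of all genes.

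Markers of other cell types moved in the same comparisons, at lower levels. The 6 endothelium markers summed to 9.65 to 19.4 CPM in D7 and 46.9 to 61.5 in D14, and *egfl7* rose between them by 1.84 on the log2 scale (adjusted p = 0.0402). Their sums were 24.9 to 49.8 in D28, 16.6 to 56.9 in PBS and 37.4 to 45.1 in ZA. The 3 Schwann cell markers present summed to 2.71 to 8.99 CPM in D7, 21.4 to 24.6 in D14, 40.2 to 470.4 in D28, 58.9 to 245 in PBS and 18.6 to 49.5 in ZA. *sox10* rose from D7 to D14 by 3.60 (adjusted p = 0.0207), and all 3 rose from D7 to D28 (4.05% of all genes did). The macrophage marker *csf1r* fell from D7 to D14 by 2.02 (adjusted p = 0.0318), while the sum of the 6 macrophage markers was 51.7 to 95.7 CPM in D7 and 52.0 to 88.6 in D14. Of 5 skeletal muscle markers present, *pax7* rose from D7 to D28 by 1.52 (adjusted p = 0.0183). No erythrocyte or pigment cell marker tested passed in any of the 4 comparisons. The part of epidermal cells or of these other cell types in the results for the members was not tested. In the D21 libraries the epidermis markers were counted in cells gated as *krt5*-negative.

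**Figure D4:**
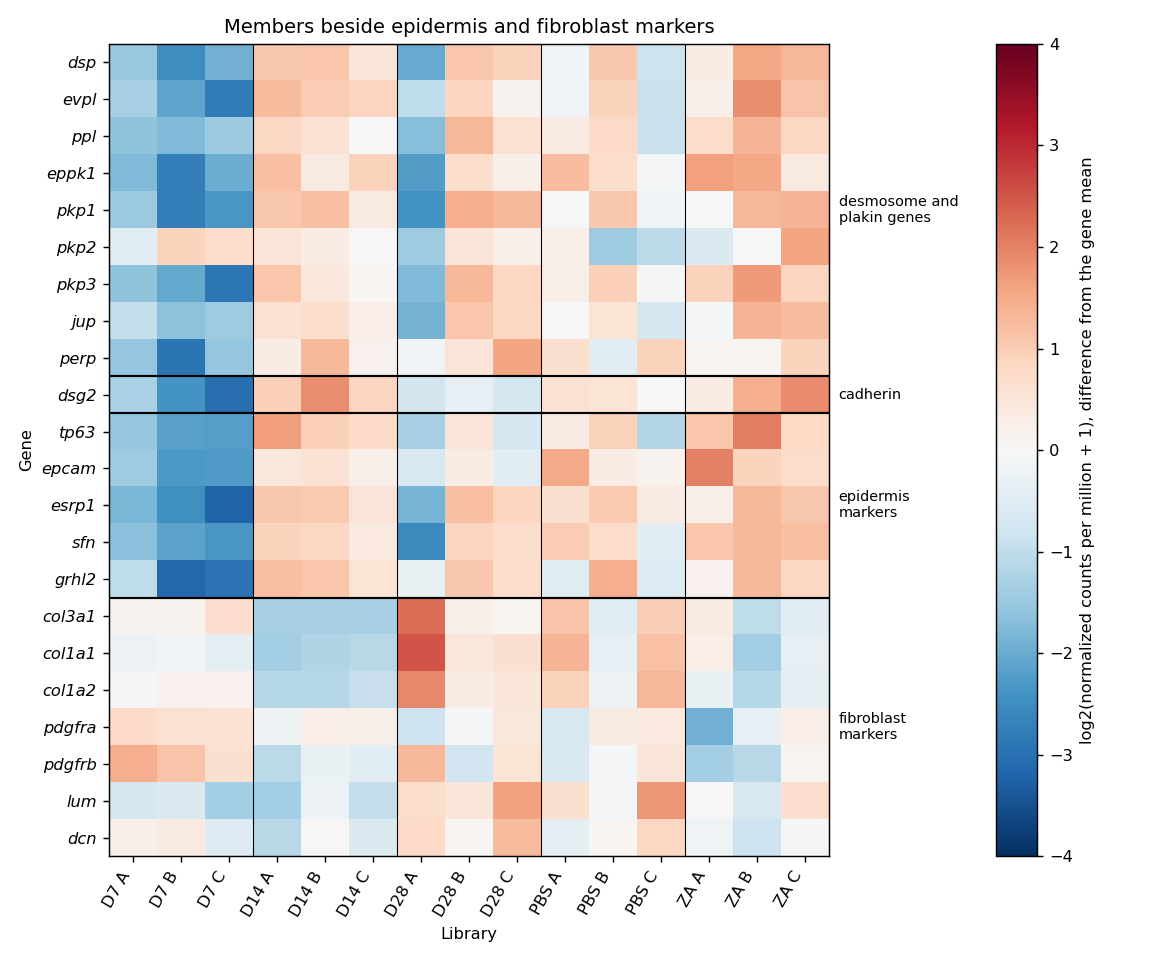
Colour shows log2(CPM + 1) minus the gene's mean over the 15 libraries (columns), red above and blue below, for the 9 members, *dsg2*, the 5 epidermis markers and the 7 fibroblast markers (rows). Members other than *pkp2* and epidermis markers are blue in the D7 columns, and D28 A is blue in most of them and red in *col3a1*, *col1a1* and *col1a2*.

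The genes most like *dsp* over the 15 libraries, among 13501 annotated genes other than the members, were *znf185* (Pearson's r 0.98, Spearman's rho 0.91), *trim29* (0.98 and 0.89), *patj* (0.97 and 0.90), *esrp2* (0.97 and 0.92) and *ncmap* (0.97 and 0.95). The nearest gene was *znf185* for *ppl* as well (r 0.98), *ncmap* for *pkp1* (0.99), *fam83b* for *evpl* (0.99) and *nbeal2* for *eppk1* (0.98). It was *tiam1* for *pkp3* (0.98), *elf1* for *jup* (0.98), *slc1a1* for *perp* (0.93) and *bhlha15* for *pkp2* (0.88). These libraries share group differences and marker levels, and the values are a description.

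The spans of *perp* and *pkp3* overlap long noncoding RNA genes and that of *pkp1* overlaps *tnnt2*, and the strand setting of the counting is not given in the sources used here. Summed over all libraries, *tnnt2* had 383 counts against 60176 of *pkp1*. The long noncoding RNA genes had 1281 counts against 5478 of *perp* and 2047 against 28444 of *pkp3*.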

How the data were processed

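Reads were aligned with STAR to the assembly rAnoCar3.1.pri by the authors, and the deposited values are whole-number counts per gene and library. The counting tool is not given in the sources used here. Groups and letters follow the titles. Positions were matched by symbol to the RefSeq table of the same assembly.

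A gene was tested where 3 or more libraries had 10 or more counts, with edgeR 4.0.16 (TMM normalization, quasi-likelihood test, Benjamini-Hochberg adjustment over all genes tested, threshold 0.05) in R 4.3.3. The 9 time course libraries shared a fit, and the 6 of D21 had their own. Fits were run on simulated data as a check of the code. The simulation gave all genes the same spread and held no library set apart, so it cannot show how the fits handle D28 A. The members and gene lists were chosen with earlier results of these data known. All members are named, with every desmosomal cadherin and, per list and comparison, up to 3 genes with the largest change among those that passed. *plec*, *ctnnb1*, the other two plakins, and the genes named for the fit without D28 A or for their level alone fall outside this rule and were named after their values were seen.

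Deviations from the group means correlated across genes between same-lettered PBS and ZA libraries (0.28 in A, 0.22 in B, 0.18 in C). The letter was therefore used as a block in an alternative fit, although the labels state no pairing. The main fit had no block.

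Alternatives were the replicate block, DESeq2 1.42.0 and its size factors, limma 3.58.1 with pseudocounts of 1 and 0.5, a mean count of 50 or more, no filter, all 15 libraries in one fit, each timepoint against the mean of the others, an added log2 threshold of 2, each library left out, the A libraries of PBS and ZA both left out, and the treatments as the sample records state them. With the treatments as the records state them, PBS A was left out and ZA A was counted as PBS. DESeq2 without D28 A was added after seeing the data.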

Additional observations from a re-analysis of the deposited data

How the results depend on the processing

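From D7 to D14, 6 members passed with all libraries, 2 with the replicate block, 1 when D14 was set against the mean of the other timepoints, 8 with DESeq2, and 0 to 8 with a library left out. From D7 to D28, 6 passed with all libraries, 1 with the replicate block, 3 with limma at either pseudocount, 8 with DESeq2, and 0 to 8 with a library left out. The other alternatives gave 6 to 8 in either comparison. The letters did not pair the time course libraries, with same-letter correlations from -0.15 to 0.15. Neither D14 to D28 nor ZA against PBS had a member pass under any alternative run. Setting a timepoint against the mean of the others is a different contrast, not another processing of the same one. The cause of the other differences was not tested.

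No value that passed changed its sign, and the changes of sign below are of values that did not pass. In D14 against D7, *pkp2* had a log2 fold change of 0.14 with the replicate block. D28 against the mean of the other timepoints is a different contrast from D28 against D14, since it averages in the D7 libraries. It gave 1.07 for *dsp*, 0.69 for *evpl* and 0.66 for *eppk1*. In D28 against D14, DESeq2 without D28 A gave 0.21 for *dsp* and 0.21 for *pkp2*. The replicate block gave -0.081 for *ppl*, -0.062 for *pkp1* and -0.10 for *jup*. Limma gave -0.31 for *ppl*, -0.67 and -0.68 for *pkp1*, -0.32 for *pkp3* and -0.43 for *jup* at pseudocounts of 1 and 0.5. A mean count of at least 50 gave -0.043 for *pkp1* and -0.012 for *jup*. With a library left out, values ran from -0.74 to 0.20 for *dsp*, -0.55 to 0.61 for *ppl*, -0.44 to 0.55 for *pkp1*, -1.01 to 0.20 for *pkp2*, -0.47 to 0.61 for *pkp3*, -0.43 to 0.53 for *jup* and -0.37 to 0.69 for *perp*. In ZA against PBS, *eppk1* was at -0.0095 with the treatment entries as written, and *perp* at 0.12 with them, at 0.057 without PBS A and ZA A, and from -0.45 to 0.13 with a library left out.

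The number of all genes that passed moved as well. From D7 to D14 it was 986 with all libraries, 578 with the replicate block, 2613 with DESeq2, 3589 without D28 A and 509 with the log2 threshold. From D14 to D28 it was 219, and 109, 771 and 860 under the first 3 of these. From D7 to D28 it was 1761, and 809, 3739, 4246 and 910. With limma at pseudocounts of 1 and 0.5 the number from D7 to D28 was 2082 and 2041. For D14 against the mean of the other timepoints it was 252. In ZA against PBS it was 8, and 41 with the replicate block and 69 with DESeq2. In ZA against PBS the blocked fit changed no call of a member. The median log2 fold change of all genes from D7 to D14 went from 0.05 to 0.20 with no filter, and from D14 to D28 from 0.04 to -0.11 and -0.14 with limma. *pkp2* had at most 69 counts in a library, and no difference was detectable at that depth.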
